A study of Homo sapiens with 6 samples.

Results

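The 6 arrays of SKOV-3 cells, a human ovarian cancer cell line, were set against each other here by their level of CYP24A1 and not by their treatment label. The arrays were chosen by the measured value itself: in the deposited log2 table the CYP24A1 probe A_23_P28815 read 13.8 on the array labelled VD replicate 2, 14.2 on vehicle replicate 1 and 14.3 on vehicle replicate 3, which form the CYP24A1-high side. It read 2.23 on VD replicate 1, 3.30 on VD replicate 3 and 4.75 on vehicle replicate 2, which form the CYP24A1-low side. All 6 arrays of the series were used, 3 on each side. VD arrays are labelled as cells given 1α,25(OH)2D3, the active form of vitamin D, at 100 nmol/L for 72 h. Vehicle arrays are labelled as cells given ethanol for the same time. All were grown in RPMI medium with fetal bovine serum, and no label says whether replicates came from separate cultures.

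This grouping conflicts with the labels. The high side holds 1 array labelled VD and 2 labelled vehicle, and the low side the reverse, so every array keeps its label below and no side is called treated or untreated. Because the sides were selected on a readout, differences between them are given as a description with no test. Each high array was matched to the low array most like it by rank correlation: VD replicate 2 with VD replicate 1 (pair A), vehicle replicate 1 with VD replicate 3 (pair B), and vehicle replicate 3 with vehicle replicate 2 (pair C). Pairs A and C therefore compare arrays of the same label, and pair B crosses the labels. Within pairs the rank correlation lay between 0.970 and 0.978 over probes that passed the filter, where each of the 6 arrays had its highest correlation with its partner. Over all probes this held for 4 of the 6 arrays. The partners of a pair sit at neighbouring positions of the same slide, pair A on slide 1 and pairs B and C on slide 2, so each pair difference is a difference within a slide. In pairs A, B and C the high array sat at positions 4, 2 and 4 and the low array at 3, 1 and 3. Side and position within a pair therefore cannot be told apart.

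1α,25(OH)2D3 acts through the vitamin D receptor (VDR), which binds DNA with a retinoid X receptor as partner and switches target genes on or off. CYP24A1 encodes the 24-hydroxylase that inactivates the hormone, and it is among the most strongly induced targets of VDR in many epithelial cells. Other known targets serve calcium transport (TRPV6), coagulation (THBD), matrix and mineral (SPP1) and growth factor binding (IGFBP3). The question addressed here is which other transcripts followed CYP24A1 across the 6 arrays.

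Levels below are log2 signals from which the array's own 75th percentile was subtracted, and differences are high side minus low side on the log2 scale, so that a value of 1 is a 2-fold difference. A gene is called separated when the sides did not overlap and each of the 3 pairs differed at least 2-fold in that direction. A probe passed the filter when the scanner software marked it as well above background on each of the 3 arrays of either side. The share of probes so marked ran from 49.1% to 57.5% over the arrays, and no spot was saturated. For a probe above background on no array of a side, a bound is given in place of a fold: the mean of the bright side against the lowest signal above background on each dim array, or the probe's own value where that is higher.

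The probes at the CYP24A1 gene, on chromosome 20, had the largest median pair difference of all genes tested. The second CYP24A1 probe, A_33_P3369401, lies in the coding part of exon 10 at chr20:54157390-54157449 of hg38, minus strand. It did not itself set the sides, but it reads the same gene as the probe that did. Its separation and rank therefore follow largely from that choice. A probe of the lncRNA design, OEV5_63001, lies in intron 7 of the same gene, at chr20:54162581-54162640 on the same strand, 76 bases past exon 7, and matches a CYP24A1 transcript without a defined coding sequence (ENST00000487593.1). It is taken here as the probe of lncBCAS1-4_1, the lncRNA in the study's title. Its sequence holds the site of the paper's reverse primer for that lncRNA and the target of an siRNA used against it. It was also the only lncRNA probe at CYP24A1 that passed the filter. The sequences of both probes are given 5′ to 3′, because a reader can place by them which pieces of the locus were read.
CYP24A1, A_33_P3369401: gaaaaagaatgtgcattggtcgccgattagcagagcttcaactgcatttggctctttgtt
lncBCAS1-4_1, OEV5_63001: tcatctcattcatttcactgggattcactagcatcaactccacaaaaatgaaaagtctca

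The exon 10 probe of CYP24A1 read 7.43, 7.93 and 8.19 on the high arrays VD replicate 2, vehicle replicate 1 and vehicle replicate 3, and -3.16, -2.63 and 1.07 on their partners. Only vehicle replicate 2 among the low arrays was well above background for it. The difference in pair C was 7.12, and the 10.60 and 10.57 of pairs A and B are against arrays where the probe was not well above background. The exon 12 probe that set the sides was above background on no low array and at least 851-fold higher on the high side. The intronic probe read 2.85, 3.09 and 3.09 on the high arrays and -5.24, -4.91 and -4.73 on their partners, where it was nowhere above background. The high side was at least 55.7-fold higher for it.

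**Figure D1:**
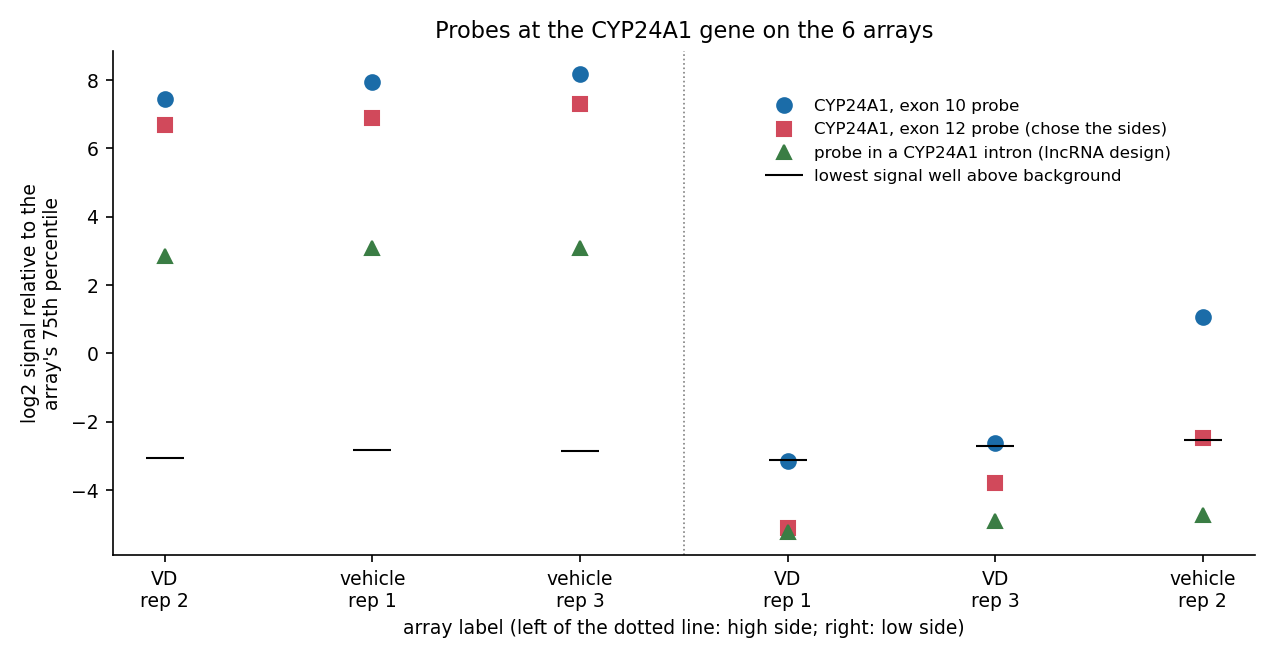
The scaled log2 signal (vertical axis, 0 at the 75th percentile of an array) of the 3 probes at the CYP24A1 gene on each array, with a bar at the lowest signal that was well above background on that array. All 3 probes lie far above the bars on the high side, and on the low side only the exon 10 probe on vehicle replicate 2 stands clearly above, at 1.07.

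Of 13291 genes that passed the filter, 25 were separated with the higher level on the high side (0.188%) and 2 with the lower level (0.015%). CYP24A1 is among the 25, which follows largely from choosing the sides by another probe of that gene. Without the pair condition the sides did not overlap for 547 genes in the higher direction (4.12%) and 363 in the lower (2.73%). The median pair difference over all genes was 0.02, and 93.7% of genes lay within 0.5 of 0. Of the 25 higher genes, 18 were above background on all 6 arrays. The others passed the filter only through the side where they were high, and 5 of them were above background on no low array. IGFBP1 was just inside with a smallest pair difference of 1.01, and SRGN, which encodes the proteoglycan serglycin, was just outside at 0.98.

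**Figure D2:**
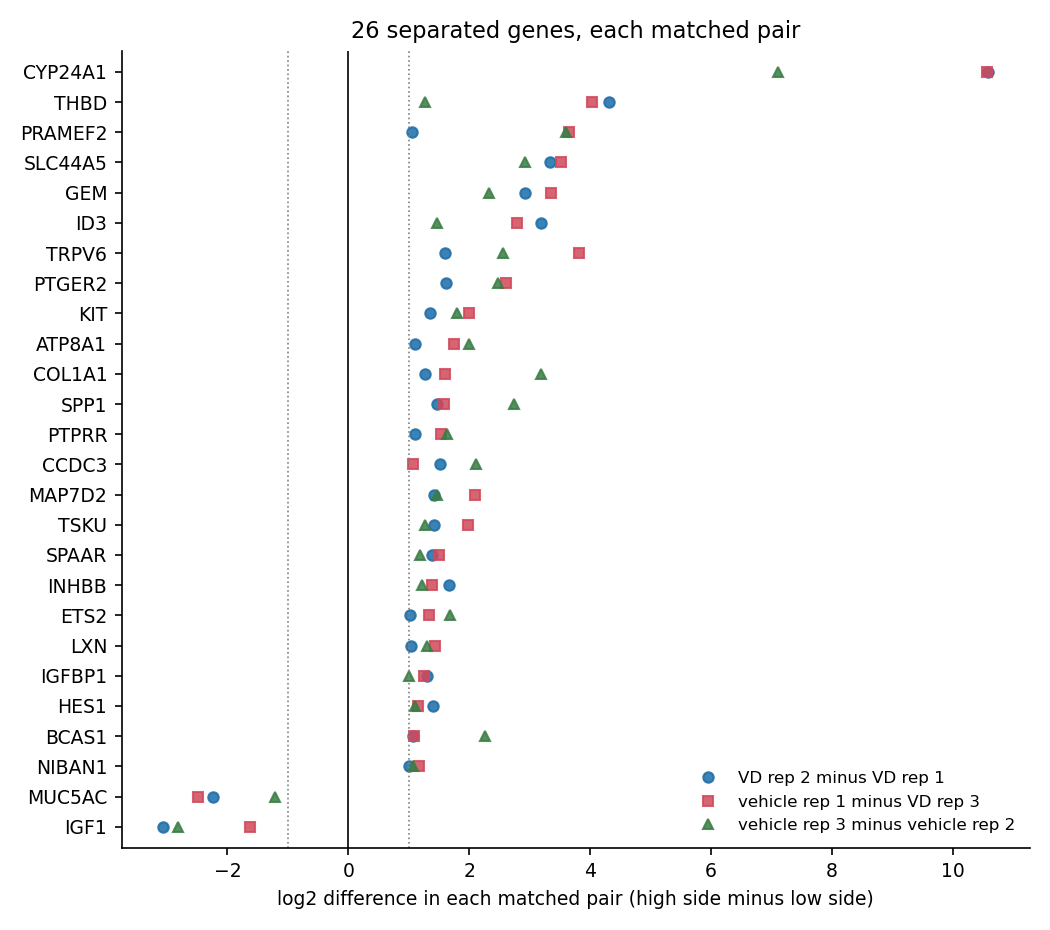
Log2 differences (horizontal axis, high side minus low side) of 26 of the 27 separated genes in each of the 3 matched pairs, in the order of their median. Every point lies beyond the dotted lines at a 2-fold difference. For genes above background on no array of a side, such as COL1A1 and CCDC3, the points use signal below background. The bounds in the text apply to those genes in place of a fold. CYP24A1 stands far from the rest, and IGF1 and MUC5AC are the only genes on the negative side.

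THBD, which encodes thrombomodulin, the thrombin receptor that activates protein C, had the next largest median pair difference after CYP24A1 among protein-coding genes. It read 4.72, 4.19 and 3.95 on the high arrays VD replicate 2, vehicle replicate 1 and vehicle replicate 3, and 0.41, 0.15 and 2.69 on their partners. The sides did not overlap, and vehicle replicate 2 lay between the high arrays and the other low ones, so the pair differences were 4.31, 4.04 and 1.26. TRPV6, the calcium channel of the apical membrane in gut and other epithelia, read -1.76, -0.16 and -1.09 on the high arrays. It was above background on no low array, which bounds the difference at 3.45-fold or more.

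SPP1, which encodes osteopontin, a secreted phosphoprotein of bone and many tumors, read 3.79, 4.32 and 3.25 on the high arrays and 2.32, 2.73 and 0.51 on the low ones. Here vehicle replicate 2 was the lowest of the 6 arrays, the reverse of its place for THBD.

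TRPV6, THBD and SPP1 were among the separated members of a list of 42 vitamin D target genes. CYP24A1 is not in that list. Of 40 members with a probe 31 passed the filter, 4 were separated higher (against 0.188% of all genes) and none lower, and their median difference was 0.29 against 0.02 over all genes. The sides did not overlap for 12 members in the higher direction (against 4.12% of all genes) and 3 in the lower (against 2.73%). This list and those below were chosen with earlier results of these data known. Their counts are therefore no test against the shares of all genes. TRPV6 passed the filter only through the high side. With all 6 arrays required above background, 3 members of the vitamin D list were separated higher. SLC37A2, a sugar phosphate carrier, differed by 2.31, 2.43 and 0.60 and missed the limit in pair C. SULT1C2, a sulfotransferase (0.82, 0.99, 1.47), IGFBP3, a carrier of insulin-like growth factors (0.90, 0.92, 1.72), and TXNRD1, a thioredoxin reductase (0.90, 0.60, 1.06), were positive in each pair but under 2-fold in at least 1. CALB1, the calcium buffer calbindin, was negative in each pair at -1.05, -0.34 and -1.54. CDKN1A, the cell cycle inhibitor p21, turned sign between pairs at 0.46, -1.11 and -0.85. CAMP, which encodes the antimicrobial peptide cathelicidin, was above background on 1 array and gave no comparison.

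**Figure D3:**
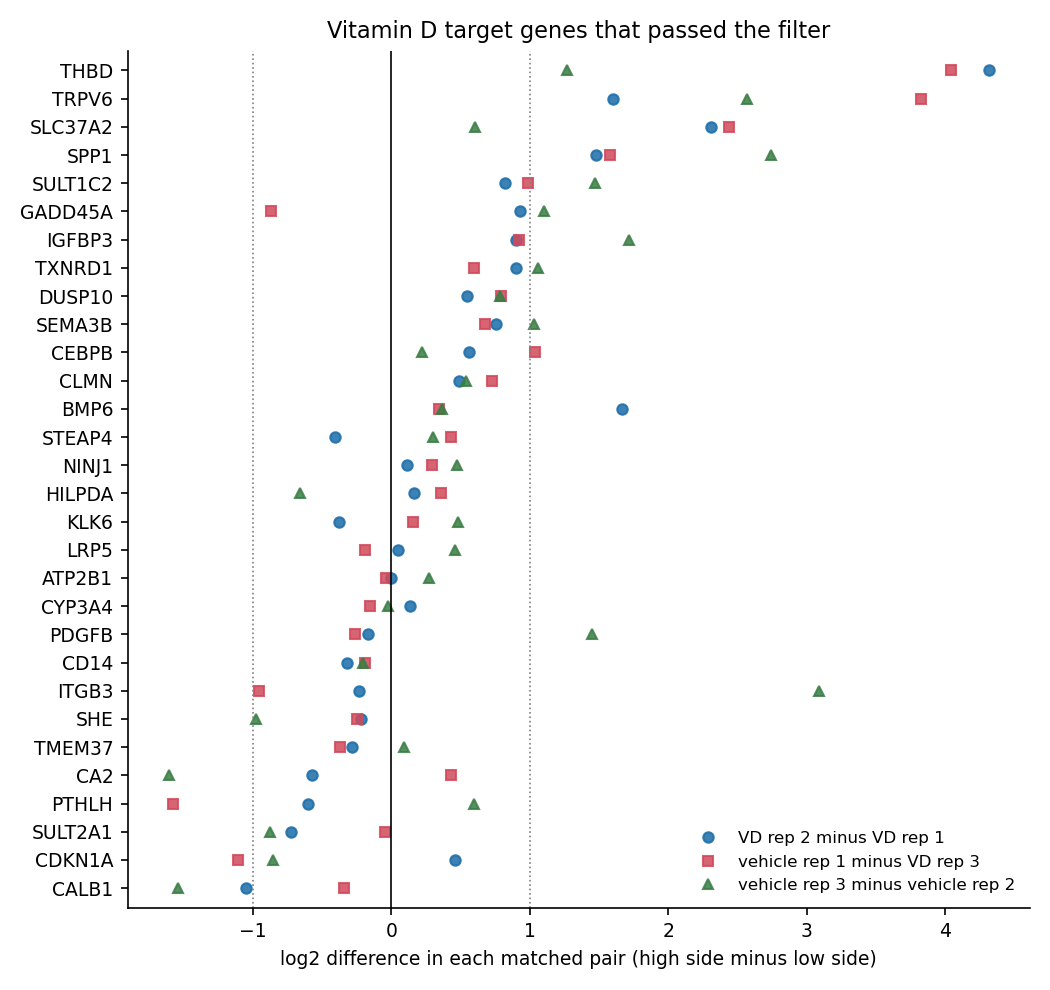
Log2 differences (horizontal axis, high side minus low side) in each matched pair for 30 of the 31 vitamin D target genes that passed the filter, in the order of their median. THBD, TRPV6 and SPP1 are past the dotted 2-fold line in all 3 pairs, SLC37A2 in 2 of them, and most members lie between the lines. The points of TRPV6 are against low arrays where it was not above background.

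The machinery of the hormone differed little by the median of the pairs. None of 13 genes for VDR, its partners, cofactors and vitamin D enzymes that passed the filter was separated, and the sides overlapped for all of them. Their median differences ran from -0.25 to 0.18. Single pairs differed more for some members, as for DHCR7 (0.18, -0.11, 1.26) and RXRA (-0.15, 0.01, -0.72). VDR itself differed by -0.19, -0.20 and -0.37. CYP27B1, the enzyme that makes the hormone, differed by 0.20, -0.22 and 0.12.

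Among the plotted lists the BMP and TGF-beta targets and ligands had the highest median, 0.85 over 17 members that passed of 26. Of these, 3 were separated higher (against 0.188% of all genes), namely ID3, INHBB and HES1. This list too was chosen with earlier results of these data known, so the count is a description only. ID3, an inhibitor of basic helix-loop-helix factors and a direct target of BMP signals, read 3.67, 3.38 and 3.98 on the high arrays and 0.47, 0.58 and 2.51 on their partners. As for THBD, vehicle replicate 2 lay closer to the high side, and pair differences were 3.19, 2.80 and 1.47. The related ID1 (1.82, 1.55, 0.93) and ID2 (1.87, 1.81, 0.57) were positive in each pair and missed the limit in pair C alone. INHBB, the beta B subunit of activin, differed by 1.66, 1.38 and 1.23, and HES1, a repressor downstream of Notch, by 1.40, 1.15 and 1.11. TGFB2, a TGF-beta ligand, differed by 2.56 and 2.54 in pairs A and C but by 0.39 in pair B. SMAD6 and SMAD7, the inhibitory SMADs, stayed under 0.8 in each pair.

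IGF1, a secreted growth factor, was 1 of the 2 lower genes. It read -4.46, -3.66 and -4.75 on the high arrays, where it was nowhere above background, and -1.39, -2.03 and -1.92 on the low arrays, where it was above background on all 3. The low side was at least 2.19-fold higher. IGFBP1, a binding protein of the same axis, went the other way by 1.30, 1.25 and 1.01. The IGF axis held 9 members that passed the filter of 14, with 1 separated higher (against 0.188% of all genes), 1 separated lower (against 0.015%) and a median of 0.03. The receptor IGF1R differed by 0.17, -0.24 and 0.03.

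MUC5AC, a gel-forming secreted mucin, was the other lower gene. It read 4.45, 4.33 and 3.47 on the high arrays and 6.68, 6.81 and 4.69 on their partners, with pair differences of -2.23, -2.48 and -1.22. The sides were 0.24 apart at their nearest arrays, vehicle replicate 2 and VD replicate 2.

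The other leading genes belong to signalling, lipid and matrix functions. GEM, a small GTPase of the RGK family that restrains calcium channels, read 2.75, 2.78 and 2.76 on the high arrays and -0.19, -0.58 and 0.43 on the low ones, so that the high arrays spanned 0.03 and the low ones 1.01. PTGER2, the prostaglandin E2 receptor EP2, differed by 1.61, 2.62 and 2.48 and was above background on 1 low array. Its 2.62 and 2.48 are against VD replicate 3 and vehicle replicate 2, where it was not well above background. KIT, the receptor of stem cell factor, had 3 probes, which were all separated with median differences from 1.54 to 1.89. PTPRR, a phosphatase of MAP kinases, differed by 1.11, 1.54 and 1.64, with both of its probes separated. ATP8A1, a flippase that moves phospholipids across membranes, differed by 1.11, 1.76 and 2.00.

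Some leading genes were dim. SLC44A5, a choline transporter-like protein, was at least 2.27-fold higher on the high side. COL1A1, the main chain of collagen I, was at least 1.60-fold higher, and CCDC3, a secreted protein, at least 1.13-fold. PRAMEF2 was at least 2.63-fold higher, but it belongs to a family of near-identical copies, so its reading is uncertain. The remaining separated genes, among them ETS2 and LXN, had median differences from 1.07 to 1.46. BCAS1, a neighbour of CYP24A1 on chromosome 20, differed by 1.07, 1.09 and 2.26, and its second probe had a median of 0.99 and was not separated.

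Among lists of other processes, 1 of 10 immediate early genes that passed was separated higher (GEM, against 0.188% of all genes), with a median of 0.44. FOS, a subunit of AP-1, differed by 2.66, 1.55 and 1.16 without being separated, since its sides overlapped. Of 4 neighbours of CYP24A1 that passed, 1 was separated higher (BCAS1, against the same 0.188%), with a median of 0.50. None was separated among 11 NRF2 antioxidant genes (median 0.16), 17 EMT genes (0.07), 24 proliferation genes (0.03) and 7 CDK inhibitors and D cyclins (-0.12). The same held for 17 cholesterol synthesis genes (0.05), 18 interferon-stimulated genes (0.08), 16 hypoxia and glycolysis genes (0.03) and 12 ATF4 and unfolded protein response genes (0.14).

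**Figure D4:**
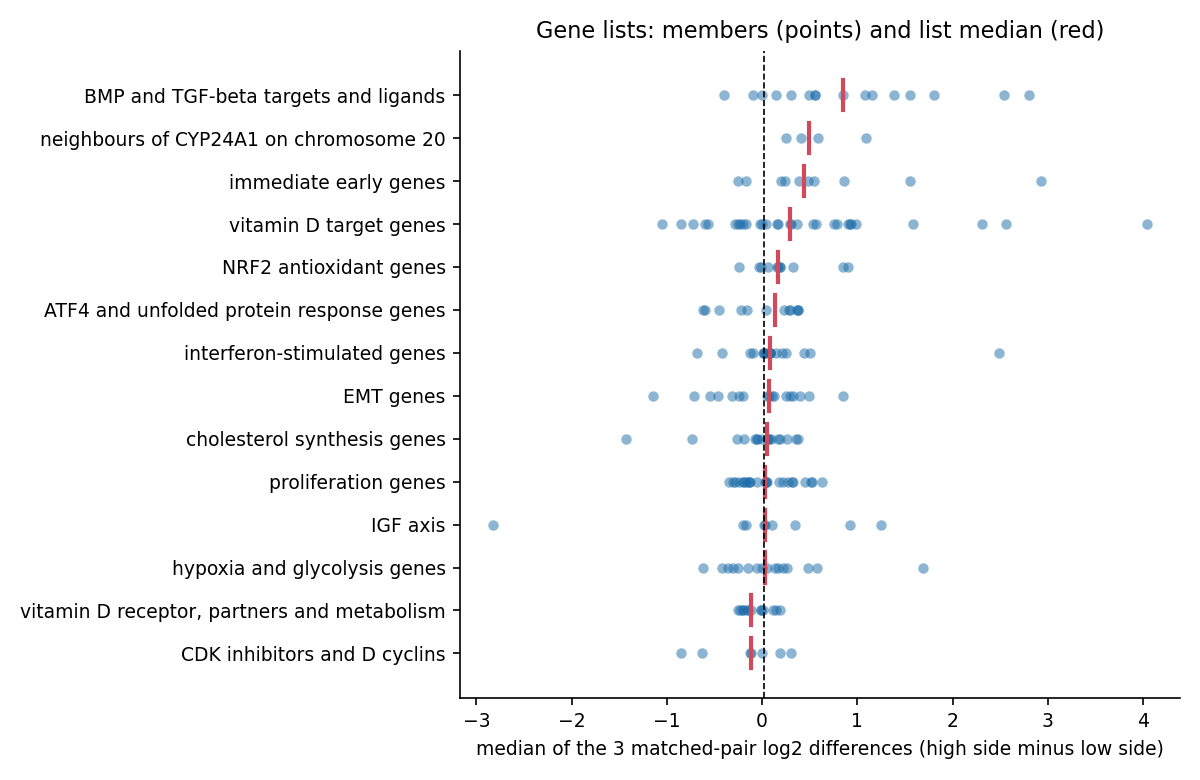
The median of the 3 pair differences (horizontal axis, log2, high side minus low side) for members that passed the filter (points) of 14 gene lists, with the list median in red and the median over all genes, 0.02, as a dashed line. The BMP and TGF-beta list has the highest median, 0.85, and the VDR list spans the narrowest range, from -0.25 to 0.18.

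All 7 epithelial ovarian carcinoma markers with a probe passed the filter, ERBB2, KRT7, KRT8 and PAX8 among them, with a median difference of 0.09 and none separated. For 1 of the 7, PAX8, the sides did not overlap in the lower direction (against 2.73% of all genes). It differed by -1.33, -0.58 and -0.23. None of 5 leukocyte markers (median -0.05) and of 3 endothelial markers (0.13) was separated. Among the leukocyte markers CD68, a lysosomal protein of macrophages, differed by 1.28, 2.05 and -0.10. Of the fibroblast markers COL1A1, a separated gene above, alone passed. DCN, COL3A1 and PDGFRA were above background on 0 arrays and LUM on 1.

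Among 40148 lncRNA probes that passed the filter, 52 were separated higher (0.13%) and 16 lower (0.0399%). Of the 52, 19 were above background on all 6 arrays and 16 on no low array. All but those 19 passed the filter only through the side where they were high. The probe of lncBCAS1-4_1, at the gene by which the sides were chosen, is among the 52. The higher probes matched 19 named loci and left 11 probes with no match to an annotated transcript, and the lower ones 9 loci and 4 such probes. Several probes of a locus overlap in sequence, so they are not independent readings. The probes printed next lead the order of each direction, with UCA1 added after its values were seen because every probe of it was separated. They are printed 5′ to 3′, since the design names carry no gene and the sequence is what identifies the transcript. Capitals mark the bases of the downstream exon where a probe spans a splice junction.
UCA1, OEV5_33391, exons 3 and 4, chr19:15835091-15835114 and chr19:15835218-15835253, plus strand: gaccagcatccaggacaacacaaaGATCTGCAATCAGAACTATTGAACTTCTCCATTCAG
OEV5_70769, chr19:15834852-15834911, minus strand: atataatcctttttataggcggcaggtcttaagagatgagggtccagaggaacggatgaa
CLEC4OP, OEV5_31078, exon 5, chr19:15852111-15852170, minus strand: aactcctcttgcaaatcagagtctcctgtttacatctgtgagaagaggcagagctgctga
ENSG00000260777, OEV5_46617, exon 2, chr17:28265104-28265163, minus strand: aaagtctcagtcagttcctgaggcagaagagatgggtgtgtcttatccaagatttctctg
LINC03049, OEV5_42562, chr19:34850669-34850728, minus strand: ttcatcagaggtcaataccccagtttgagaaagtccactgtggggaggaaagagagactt
LINC01411, OEV5_40324, exon 4, chr5:174528506-174528565, plus strand: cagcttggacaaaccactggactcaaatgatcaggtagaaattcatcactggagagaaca
MIR205HG, OEV5_37581, exons 2 and 3, chr1:209429396-209429408 and chr1:209432204-209432250, plus strand: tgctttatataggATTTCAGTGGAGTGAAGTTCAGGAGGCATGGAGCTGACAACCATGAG
ATP8B5P, OEV5_52454, chr9:35480080-35480139, plus strand: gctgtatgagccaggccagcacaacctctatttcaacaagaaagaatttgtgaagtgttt
OEV5_02929, chr4:183731784-183731843, minus strand: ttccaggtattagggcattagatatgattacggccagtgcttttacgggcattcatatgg

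UCA1, a lncRNA named for its high level in urothelial cancer, had 11 probes that passed the filter, and all 11 were separated with median differences from 1.59 to 3.11. Its leading probe read 2.47, 1.92 and 2.46 on the high arrays and -0.65, -1.35 and 0.70 on their partners. CLEC4OP, a lectin pseudogene with a lncRNA transcript, lies 9.93 kb from UCA1, and 3 of its 5 probes were separated. Its leading probe read 1.56, 1.12 and 2.77 on the high arrays and -2.69, -3.26 and 0.55 on their partners. On VD replicate 3 it was not well above background. Vehicle replicate 2 lay 3.24 above the next low array for this probe, close to the high side. OEV5_70769 lies antisense to exon 4 of the canonical UCA1 transcript, and it differed by 3.19, 4.41 and 1.95. The exons of the printed UCA1 probe are numbered by another transcript (ENST00000589333.3). Among the low arrays only vehicle replicate 2 was well above background for OEV5_70769. Its 3.19 and 4.41 are therefore against arrays where it was not. For each of these leading probes vehicle replicate 2 was the highest of the low arrays, as for THBD and ID3.

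LINC03049 had 4 probes, all separated and above background on no low array, with bounds from 1.89-fold to 2.53-fold. Its leading probe, at least 2.53-fold higher on the high side, also lies antisense to an exon of LINC02965. LINC01411 on chromosome 5 had 3 of 4 probes separated, the leading one at least 2.63-fold higher. ENSG00000260777 on chromosome 17, with 1 probe, was at least 2.83-fold higher. The leading probes of these 3 loci were not above background on any low array.

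On the lower side MIR205HG, the host transcript of miR-205, had 4 probes and all were separated. Its leading probe read -0.52, -0.44 and -1.99 on VD replicate 1, VD replicate 3 and vehicle replicate 2 and was above background on no high array, so the low side was at least 3.77-fold higher. ATP8B5P, a pseudogene of a lipid flippase, read -0.66, -0.74 and -0.95 on the high arrays and 1.75, 1.99 and 0.05 on their partners, which left pair C at the limit, at -1.0. OEV5_02929 read -1.19, -1.23 and 0.30 on those low arrays, at least 4.58-fold above the high side. Its sequence holds the site of the paper's reverse primer for lnc-RWDD4-5_1, which the paper names as its most downregulated lncRNA. That refers to treated against vehicle cells and not to the sides used here. By label OEV5_02929 read -1.19, -3.54 and -1.23 on VD replicates 1, 2 and 3. On vehicle replicates 1, 2 and 3 it read -2.79, 0.30 and -3.35. A probe in a KRT7 transcript (OEV5_74819) was above background on no high array and at least 2.43-fold higher on the low side. It was the only 1 separated of 4 lncRNA probes at KRT7 that passed, whose median differences ran from -2.34 to 0.93. Probes in LINC00494 and ENSG00000236451 were at least 2.13-fold and 1.56-fold higher on the low side. Each of these 2 loci had a second probe that passed and was not separated, with median differences of 0.005 and 0.19.

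**Figure D5:**
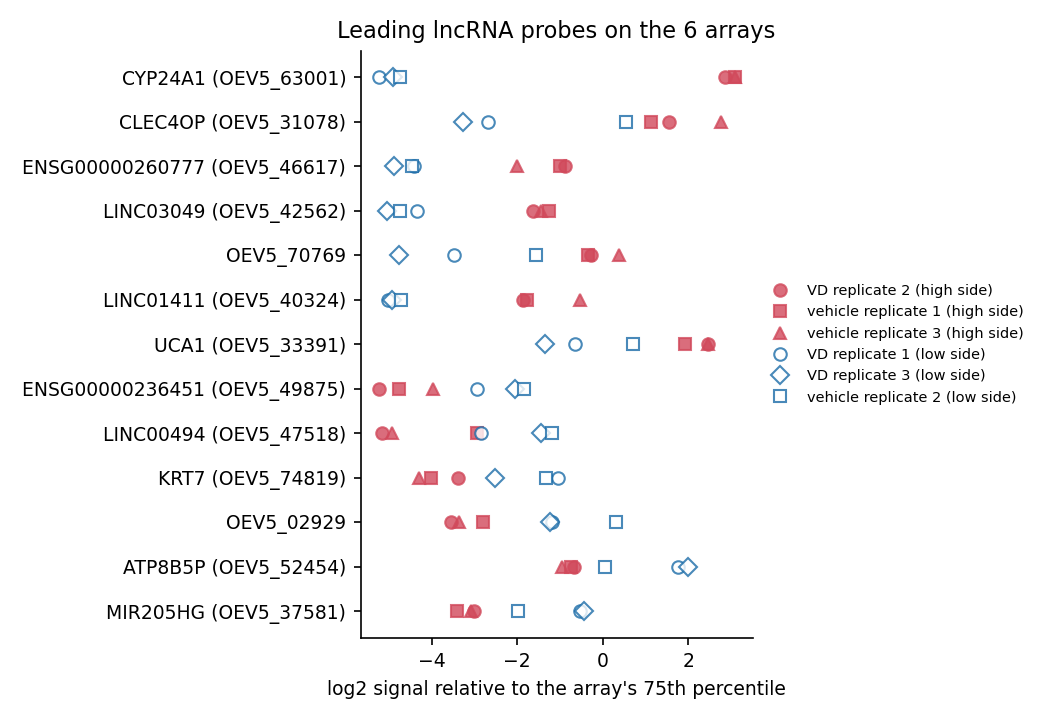
Scaled log2 signal (horizontal axis, 0 at the 75th percentile of an array) of the leading lncRNA probes on the 6 arrays, red filled for the high side and open blue for the low side. Vehicle replicate 2 (open square) stands between the sides for CLEC4OP, OEV5_70769, UCA1, ATP8B5P and MIR205HG.

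Vehicle replicate 2 was the low array nearest the high side for 8 of the 18 higher genes and 13 of the 19 higher lncRNA probes that were above background on all 6 arrays. VD replicate 1 was nearest for 7 of these genes and 4 of these lncRNA probes, and VD replicate 3 for 3 and 2. Vehicle replicate 2 also had the smallest share of probes above background, 49.1%. Whether that share bears on its intermediate levels was not tested.

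The comparison the labels define, 3 VD arrays against 3 vehicle arrays, was tested with limma over 63332 probes. No probe had an adjusted p under 0.05, the smallest was 0.711, and 4088 probes had an unadjusted p under 0.05. Of the 27 separated genes, 20 passed the filter of that fit, which asks for 3 arrays of a label, and their limma adjusted p lay between 0.711 and 0.997. In that fit 17 of them were lower and 3 higher on the arrays labelled VD. The high side holds 2 vehicle arrays and 1 VD array, so these signs follow in part from how the genes were selected. Each label also has arrays on both sides, which widens the spread within a label for these genes. CYP24A1 differed by -5.18 on the log2 scale, VD minus vehicle, with a standard error of 3.0 (limma adjusted p = 0.711). MUC5AC was 1.82 higher with a standard error of 0.63 (limma adjusted p = 0.711), and SPP1 0.26 higher with a standard error of 0.89 (limma adjusted p = 0.946). The precision of these values is limited by the number of arrays, and where replicates are not separate cultures the p-values measure technical spread.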

How the data were processed

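RNA of SKOV-3 cells was hybridised to 6 single-color Agilent arrays. The authors scanned them with Agilent Feature Extraction 10.7.1.1 (per the labels' processing notes) and deposited a linear intensity for every spot, corrected for background within the array, with quality flags. A second table that the authors deposited holds log2 values, 1 per probe and array, whose sorted columns differed by at most 0.000913, as after quantile normalization. The genome build was not given in the sources used here.

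Outlier spots and controls were left out, the spots of each probe averaged, and the 75th percentile of an array subtracted from its log2 values. Of 125601 probes, 17 lacked a value. Probe sequences were matched without mismatch to GENCODE 44 and hg38. A gene was read by its brightest probe that matched 1 protein-coding gene (13291 genes passed the filter). lncRNA probes were those of the lncRNA design or matching a lncRNA.

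The members, gene lists and limits were chosen with earlier results of these data known. Genes named are CYP24A1, lncBCAS1-4_1, the 15 higher and 10 lower separated genes with the largest median pair difference, separated members of the lists, the 6 leading lncRNA loci in each direction, and list members on which a statement turns. Others, such as UCA1, SRGN, ETS2, LXN, TSKU, SPAAR and the CYP4F genes, were named after their values were seen. The labelled arrays were compared with limma 3.58.1 (R 4.3.3) and Benjamini-Hochberg adjustment over all probes. The separation rule and the limma fit were tested on simulated data. Some genes of the lists are not reported here and are left out of the plots, while the counts include them.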

Additional observations from a re-analysis of the deposited data

How the results depend on the processing

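CYP24A1 and the other named genes and probes kept the sign of their median difference under quantile normalization, the authors' log2 table and normexp. Under the first 2 all 39 stayed within the spread of their pairs, whereas under normexp, which shrinks dim signals, 29 of the 39 moved beyond it. Quantile normalization gave 28 higher genes, of which 23 were among the 25. Normexp left 10 higher and 1 lower gene, all among those of the report, 16 higher and 3 lower lncRNA probes, and 3 vitamin D target genes in place of 4. With no filter on background there were 33 higher and 6 lower genes, 97 higher and 118 lower lncRNA probes. With all 6 arrays required above background there were 18 higher and 1 lower gene, 19 higher and 7 lower lncRNA probes. A limit of 1.5-fold in every pair gave 63 higher and 18 lower genes, 136 higher and 63 lower lncRNA probes, and 9 vitamin D target genes. With a difference of medians in place of the pair condition, the counts were 57 and 15 genes and 103 and 55 lncRNA probes. Leaving out an array drops its pair from the pair condition, so these counts can only be met more easily: they ran from 36 to 52 higher genes, 5 to 55 lower genes, 68 to 104 higher and 38 to 136 lower lncRNA probes, and 4 to 5 vitamin D target genes. The count of lower genes, 2 with all arrays, was 55 without vehicle replicate 2, 16 without vehicle replicate 3, 12 without vehicle replicate 1, 10 without VD replicate 1, 10 without VD replicate 3 and 5 without VD replicate 2. All 25 higher and both lower genes stayed called in each of these, an outcome largely fixed in advance by the looser conditions.

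In the labelled comparison 0 probes had an adjusted p under 0.05 in limma in every alternative run. The smallest adjusted p was 0.0513, without vehicle replicate 1. With the replicate number as a block (replicate block) the count was 0, with 4644 probes at an unadjusted p under 0.05. The deviations of same-numbered arrays correlated at 0.124, 0.094 and -0.035, so the numbers were not taken as pairs. With the slide as a block the count was 0, with 2535 probes at an unadjusted p under 0.05. Signal over background limits what can be said of the dim side of a gene: 5 of the 25 higher genes and 16 of the 52 higher lncRNA probes had only a bound there.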

Other observations

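The genes that code for cytochrome P450 enzymes of the CYP4F family, omega-hydroxylases of fatty acids, lie around UCA1 and CLEC4OP on chromosome 19. Within 200 kb each way 6 of 10 protein-coding genes passed the filter and none was separated. CYP4F2 differed by 2.42, 2.01 and 0.83 in pairs A, B and C, CYP4F11 by 2.30, 1.82 and 0.75, CYP4F12 by 2.14, 1.58 and 0.70, and CYP4F8 by 1.57, 0.91 and 0.54. All 4 were positive in each pair and smallest in pair C, the pair that holds vehicle replicate 2, but their sides overlapped. The near-identical members of the family could share signal on an array. Of the olfactory receptors in the same window, OR10H1 differed by 2.74, -0.04 and 1.1 and OR10H2 by -0.01, -0.29 and 0.27.

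Of 94 separated genes and lncRNA probes with a place on hg38, 5 stretches held features of different names less than 100 kb apart. Beside UCA1 with CLEC4OP, these were LINC03049 with an intronic probe of the same gene, SPAAR on chromosome 9 with OEV5_05429 and OEV5_14244 (medians 1.38, 1.69 and 1.74), TSKU on chromosome 11 with the intronic probe OEV5_68216 (1.41 and 1.55), and LINC01594 on chromosome 2 with the pseudogene SETD6P1 (1.62 and 2.13).

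Some list members that were not separated differed widely in some pairs and little in others. GBP1, an interferon-inducible GTPase, differed by 2.49 and 4.45 in pairs A and C and by 0.49 in pair B. Its 4.45 is against vehicle replicate 2, where GBP1 was not well above background. The adhesion receptor ITGB3 differed by 3.09 in pair C against -0.24 and -0.96 in the others.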
